A study of Drosophila melanogaster with 35 samples.

Results

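SMC6, tefu, Msh6 and Parp1 are Drosophila melanogaster genes whose products act in DNA repair. They were chosen by name, as the array rows that list each of them as the single gene, and make 4 of the 7260 genes with a single symbol on the arrays. The choice was made in part because Lam ratios of such genes were higher with trichostatin A (TSA), so the TSA ratios of Lam are given as a description with no test. Each gene has 1 cDNA spot: clone SD25546 for SMC6 (CG5524, chromosome arm 3R), AT01448 for tefu (CG6535, arm 3R), AT13263 for Msh6 (CG7003, arm 3L) and LD31274 for Parp1 (CG40411, arm 3R). SMC6, tefu and Msh6 have a value on 35 of 35 arrays, whereas Parp1 has a value on 10 and none on the ecdysone or TSA arrays.

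Cells carry separate repair pathways for mispaired bases, strand breaks and stalled replication. The MutS homologue Msh6 recognises mismatches left by replication, and tefu encodes the ATM kinase, which signals double-strand breaks and protects telomeres in the fly. SMC6 is a subunit of the SMC5/6 complex, a ring-shaped relative of cohesin and condensin that acts in recombination repair, and Parp1 adds ADP-ribose chains to proteins at breaks and, in the fly, also opens chromatin at active loci. The nuclear lamina is a protein mesh under the inner nuclear membrane that lies close to large, mostly silent stretches of the genome.

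Lam contact was measured by DamID in Kc167 cells, an embryonic Drosophila line grown in culture. A plasmid brings in the Escherichia coli adenine methyltransferase Dam fused to B-type lamin (Lam), and DNA that comes near the fusion protein is methylated. A second fusion, Lam delta CaaX, lacks the last 4 amino acids, which hold the CaaX signal for membrane attachment, and Dam alone is the reference for accessibility. All DamID cells carry a Dam plasmid by transfection and also their own Lam, so no group is without lamin. Untreated cells gave 4 arrays of Lam over Dam and 4 arrays of Lam delta CaaX over Dam, 2 in each dye orientation. The TSA experiment has 5 comparisons of 2 dye-swapped arrays each: Lam with over without TSA, Lam delta CaaX with over without TSA, Dam with over without TSA, and each fusion over Dam when both had TSA (100 nM for 24 h; TSA inhibits histone deacetylases). Transcripts were measured on 2 arrays of mRNA over genomic DNA from untreated cells and on 5 arrays of mRNA with over without the moulting hormone ecdysone, and 10 further DamID arrays come from cells with or without ecdysone (1 µM for 24 h).

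The 35 arrays hold 7542 to 8485 rows with a value, and array medians lay between -0.22 and 0.14. Values below are log2 ratios centred on the array median. They are read as the first-named DNA or RNA over the second. Dye-swapped arrays of untreated DamID, TSA and mRNA over genomic DNA correlate positively (r = 0.42 to 0.95), which leaves this direction unproven. If it were the other way throughout, every sign below would turn. Some dye-swapped arrays with ecdysone correlate negatively: mRNA arrays 3426 and 3427 at -0.14, and Lam over Dam arrays 3434 and 3443 at -0.48 and 3428 and 3442 at -0.55. In each limma fit, p was adjusted by Benjamini-Hochberg across its units (genes and unnamed rows), and a gene is called where the adjusted p is under 0.05. Nothing in the labels ties replicate arrays to separate cultures, so p-values measure the spread between arrays, which may be technical. Of 10 measured hemocyte markers, the cell type Kc167 cells resemble, 6 lay above the array median in mRNA over genomic DNA, with Hml at 4.49 and Ppn at 1.98 but NimC1 at -2.25 and eater at -0.85. All 5 fat body and yolk protein genes lay below it (-2.81 to -0.46), as did the neuronal gene nSyb (-1.52) and the male germline gene bol (-1.72), while Act79B, a muscle actin, was at 3.44 with the other 2 of 3 measured muscle genes below.

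In untreated cells, the Lam ratios of all 4 repair genes were below 0 on each of the 4 arrays, that is, below the array median. The 3 Lam over Dam arrays without ecdysone from the ecdysone experiment, whose direction is unsettled, did not show this. On those, tefu was at 0.02 to 0.28, Msh6 at 0.76 to 1.06 and SMC6 at -0.89 to 0.97. The break-signalling kinase gene tefu had ratios of -1.64 and -0.94 on the arrays with the fusion DNA in Cy5 (2907 and 2921) and of -1.73 and -1.02 on those with it in Cy3 (2945 and 2955). Its mean was -1.34 ± 0.41 (SD, n = 4), with 0.3% of the 8064 units tested below it. The SMC5/6 subunit gene SMC6 gave -0.86, -0.44, -1.02 and -0.55 on the same arrays, a mean of -0.72 ± 0.27 (SD, n = 4). The mismatch repair gene Msh6 gave -0.45, -0.35, -0.49 and -0.48, a mean of -0.44 ± 0.07 (SD, n = 4). The arrays of tefu did not overlap with those of Msh6, and those of SMC6 overlapped with both.

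All 3 genes tested for Lam in untreated cells were called lower, where 14.9% of all units were called lower and 20.3% higher. Across 6857 units, the untreated Lam ratio and the ratio of Lam with over without TSA, on which the genes were in part chosen, had r = -0.62, so these calls are not independent of the choice. The fitted ratio of tefu was -1.34 ± 0.19 (SE, adjusted p = 0.00481), that of SMC6 -0.72 ± 0.16 (adjusted p = 0.0159) and that of Msh6 -0.44 ± 0.13 (adjusted p = 0.0414). The middle 90% of all units spanned -0.74 to 1.11, so tefu lay outside it, while SMC6 (5.6% of units below) and Msh6 (18.7% below) lay within. The calls, though not the ratios, were lost when array 2907 or 2921, both with the fusion DNA in Cy5, was left out. They stayed when 2945 or 2955 was left out. With the dye term, a fit without 2907 or 2921 takes its residual spread from the Cy3 arrays 2945 and 2955. Those correlate at 0.51, against 0.76 for 2907 and 2921. Without 2907 the ratio was -1.16 ± 0.25 (SE) for tefu (adjusted p = 0.0597), -0.62 ± 0.23 for SMC6 (adjusted p = 0.143) and -0.41 ± 0.21 for Msh6 (adjusted p = 0.242). Without 2921 it was -1.51 ± 0.25 for tefu (adjusted p = 0.0521), -0.82 ± 0.23 for SMC6 (adjusted p = 0.0957) and -0.47 ± 0.21 for Msh6 (adjusted p = 0.209). In those fits 247 and 11 units were called in all, against 2844 with all 4 arrays, 3843 without 2945 and 4237 without 2955.

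The poly(ADP-ribose) polymerase gene Parp1 had Lam ratios of -0.76 on array 2907, -1.05 on 2921, -5.85 on 2945 and -1.45 on 2955. Array 2945 stood far below the other 3, which spanned -1.45 to -0.76 and lay below all 4 arrays of Msh6. The mean was -2.28 ± 2.40 (SD, n = 4) with array 2945 and -1.09 ± 0.35 (SD, n = 3) without it, and the median of the 4 arrays was -1.25. Array 2945 also had the widest spread of the 4 over all rows, a median absolute deviation of 0.504 against 0.377 to 0.39. Since earlier results on these arrays had singled Parp1 out, its ratio was not tested.

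**Figure D1:**
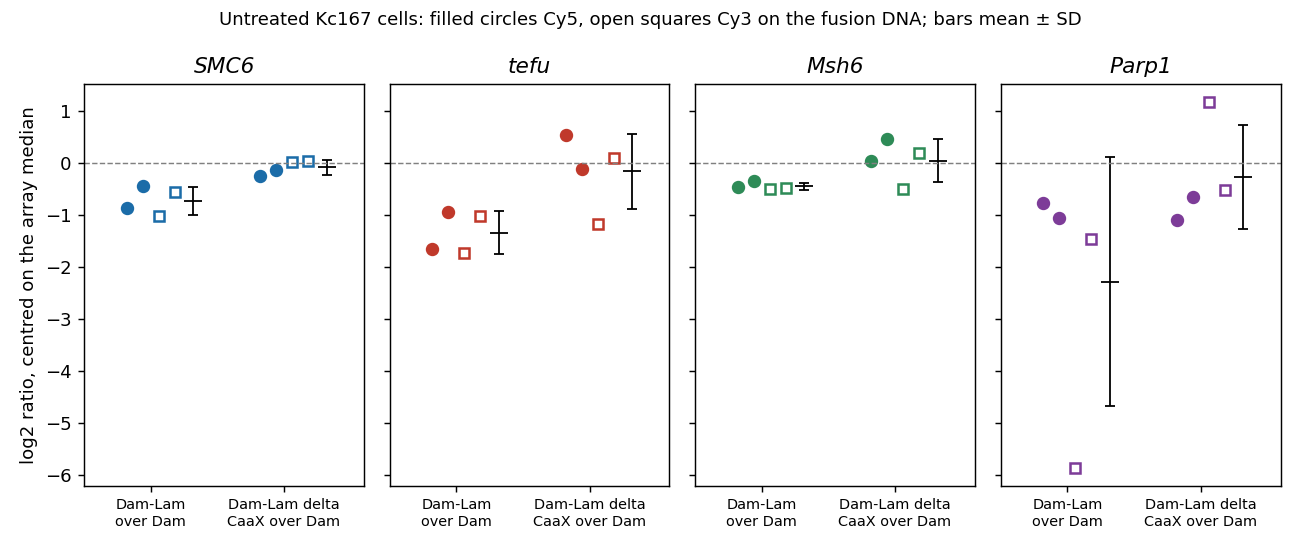
Log2 ratios of Lam over Dam and Lam delta CaaX over Dam (vertical axis, centred on the array median) for SMC6, tefu, Msh6 and Parp1 in untreated cells; each point is an array (filled circles, fusion DNA in Cy5; open squares, Cy3) and bars are mean ± SD of 4 arrays. All Lam points lie below 0, with Parp1 at -5.85 on array 2945, and Lam delta CaaX points fall on both sides of 0.

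The protein without its membrane signal gave ratios on both sides of 0 at these genes. For tefu, Lam delta CaaX over Dam was 0.54 and -0.11 on the Cy5 arrays (2962 and 2966) and -1.17 and 0.11 on the Cy3 arrays (2967 and 2968). SMC6 gave -0.25, -0.13, 0.02 and 0.04, and Msh6 gave 0.05, 0.47, -0.50 and 0.19. Parp1 gave -1.10, -0.65, 1.18 and -0.52, with array 2967 apart from the rest.

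None of the 4 genes was called for Lam delta CaaX by limma, and none had an unadjusted p under 0.05, where 16.1% of 8058 units were called higher and 16.4% lower. The fitted ratios were -0.08 ± 0.12 for SMC6 (SE, adjusted p = 0.622), -0.16 ± 0.21 for tefu (adjusted p = 0.58), 0.05 ± 0.15 for Msh6 (adjusted p = 0.806) and -0.27 ± 0.24 for Parp1 (adjusted p = 0.396). The spread between arrays was wide for tefu (SD 0.73) and Parp1 (SD 1.00), so a ratio well off 0 would not have been detected for them. Leaving out a single array changed the sign or the call for each gene except SMC6. Without array 2967, tefu was at 0.17, and Parp1 was at -0.70 with an adjusted p of 0.0304. Without array 2966, tefu was at 0.01 and Msh6 at -0.05. Without array 2968, Msh6 was at -0.12 and Parp1 at 0.15.

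The difference between the proteins was tested on the 8 arrays together. Lam was lower than Lam delta CaaX by a log2 difference of -1.18 ± 0.32 for tefu (SE, adjusted p = 0.0172) and of -0.64 ± 0.19 for SMC6 (adjusted p = 0.0262). These are 2 calls among the 3 genes tested, where 14.1% of 7713 units were called lower and 21.1% higher. The difference uses the same untreated Lam arrays as above, so these calls are not independent of the choice of genes either. For Msh6 the difference was -0.49 ± 0.21 with an adjusted p of 0.0849, and for Parp1 it was -2.01 ± 0.95 with array 2945 and -0.73 without it, not tested. The 4 Lam arrays of SMC6 all lay below its 4 Lam delta CaaX arrays, whereas those of tefu overlapped through array 2967 at -1.17, those of Msh6 through the same array at -0.50, and those of Parp1 through array 2962 at -1.10. How many of all units show a separation like that of SMC6 was not counted.

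Both calls were near the threshold. The adjusted p of SMC6 was 0.0699 to 0.0775 when array 2907, 2967 or 2968 was left out, and that of tefu was 0.0576 to 0.0604 without 2907, 2962 or 2968. With the arrays scaled to the same spread the difference of tefu was -0.97 (adjusted p = 0.0514). Msh6 was called without array 2967, at -0.67 (adjusted p = 0.0393).

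The arrays with over without TSA compare methylation by each protein between treated and untreated cells. The change of Dam alone, the reference for accessibility, is given further below. For Lam, the ratio with over without TSA was 1.31 (Cy3) and 1.48 (Cy5) for tefu, 0.79 and 0.93 for SMC6, and 0.75 and 0.75 for Msh6. All 6 values lay above 0, which is part of how the genes were chosen; over the whole experiment 31.9% of units were called higher and 33.6% lower for this ratio. Among all 7090 units of the experiment, 99.9% lay below tefu, 95.8% below SMC6 and 92.8% below Msh6, and the middle 90% spanned -1.13 to 0.82.

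The fusion without the membrane signal moved the same way at tefu and Msh6. The Lam delta CaaX ratio with over without TSA was 0.95 and 1.29 for tefu, 0.65 and 0.65 for Msh6, and 0.32 and 0.46 for SMC6. All 6 values were above 0. The fitted change was 1.12 ± 0.10 for tefu (SE, adjusted p = 1.34e-06) and 0.65 ± 0.09 for Msh6 (adjusted p = 5.74e-05), so 2 of 3 genes rose, where 27.8% of all units were called higher and 29.2% lower. Across 7090 units the TSA ratios of Lam and of Lam delta CaaX had r = 0.67, so the rise is not independent of a choice made in part on Lam. Both stayed called without any 1 of the 10 arrays and under each other setting tried, with tefu at 0.98 to 1.26 and Msh6 at 0.62 to 0.67 when an array was left out. These ratios rest on the dye-swapped pair 3692 and 3693 alone. Leaving out an array of another comparison could change only the spread and not the ratio.

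SMC6 was not called in that comparison (0.39 ± 0.38, adjusted p = 0.401), although its 2 arrays differ little. The model shares its spread over the 10 TSA arrays, and 1 array of Dam alone stood apart for SMC6. Without either array of that Dam pair, the fitted value was again 0.39, with an adjusted p of 0.00312.

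Dam alone reports accessibility without lamin. Its ratio with over without TSA was 0.20 and 0.26 for tefu and 0.25 and 0.28 for Msh6, with 77.0% and 81.0% of all units below; 15.6% of units were called higher for Dam and 16% lower. The values for SMC6 were -2.77 on array 3690 (Cy3) and 0.14 on array 3691 (Cy5). These 2 arrays of the same comparison disagree in sign for SMC6, and no further array of it was analysed here, so the change of Dam at SMC6 is not settled.

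Subtracting the change of Dam gives the change of the fusion relative to Dam. For Lam this was 1.17 at tefu and 0.49 at Msh6, and with either Dam array alone it stayed at 1.14 to 1.20 and 0.47 to 0.50. For Lam delta CaaX it was 0.89 at tefu and 0.38 at Msh6. At SMC6 the net change of Lam was 2.17 with both Dam arrays, 3.63 with array 3690 alone and 0.72 with array 3691 alone, and that of Lam delta CaaX was 1.70, 3.16 and 0.25. The values of tefu and Msh6 thus depend little on which Dam array is taken, and those of SMC6 depend on it almost wholly.

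**Figure D2:**
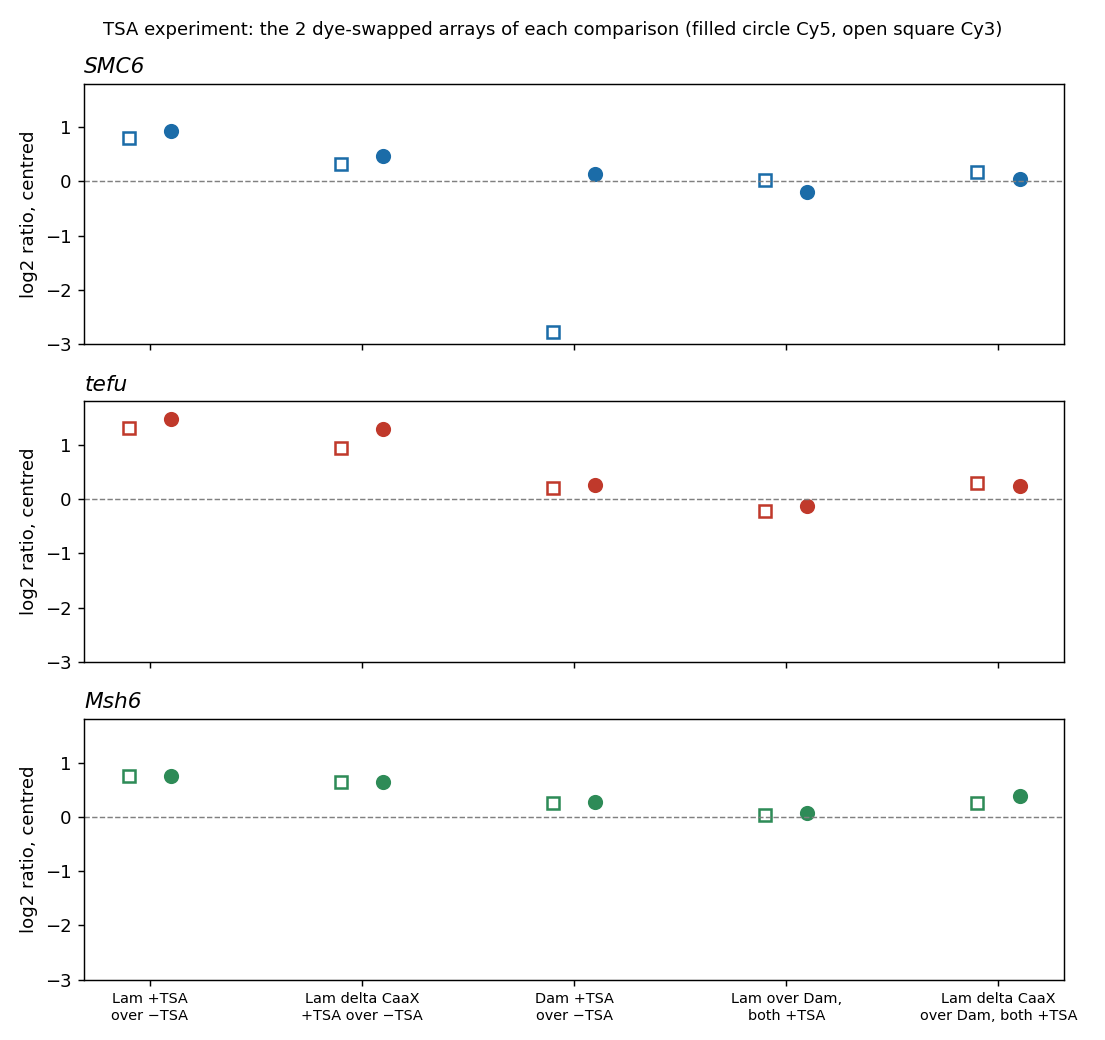
Log2 ratios (vertical axis, centred on the array median) of the 5 comparisons of the TSA experiment for SMC6, tefu and Msh6, with the 2 dye-swapped arrays of each (filled circles, first-named DNA in Cy5; open squares, Cy3). Lam and Lam delta CaaX with over without TSA lie above 0 for all 3 genes, Lam over Dam with TSA lies near 0, and SMC6 has 1 array of Dam at -2.77.

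In cells that had TSA, Lam over Dam lay close to the array median at these genes. The ratios were -0.21 and -0.13 for tefu, 0.02 and -0.20 for SMC6, and 0.04 and 0.07 for Msh6. From 27.8% to 57.5% of all units lay below the 3 fitted values (-0.17, -0.09 and 0.06), while 19.5% of units were called higher and 14.6% lower. The ratio without TSA that the experiment implies, from the treated ratio minus the net change, was -1.34 for tefu and -0.43 for Msh6. The separate arrays of untreated cells gave -1.34 and -0.44 for the same genes. For SMC6 the implied ratio was -0.81 with Dam array 3691 and -3.72 with 3690, beside -0.72 on the untreated arrays. Across 6857 units the implied and the directly measured Lam ratios had r = 0.84, a description over units that share arrays within each experiment. For Lam delta CaaX the match was less close, with r = 0.64 across 6848 units. Its implied ratio was -0.62 for tefu and -0.06 for Msh6, beside -0.16 ± 0.21 (SE) and 0.05 ± 0.15 on the untreated arrays.

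The order of the Lam ratios of tefu was therefore untreated cells lowest, treated cells near 0, with no overlap between the arrays (-1.73 to -0.94 against -0.21 to -0.13). SMC6 had the same order without overlap (-1.02 to -0.44 against -0.20 to 0.02), and so had Msh6 (-0.49 to -0.35 against 0.04 to 0.07). The untreated and treated arrays belong to different experiments, so treatment and experiment cannot be told apart in this order, and it was not tested. The genes were chosen in part for Lam ratios that were higher with TSA, so the order is not independent of the choice. How many of all units show the same order without overlap was not counted.

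Lam delta CaaX over Dam in treated cells was 0.29 and 0.25 for tefu, 0.26 and 0.38 for Msh6, and 0.17 and 0.05 for SMC6. Of the 3 genes, Msh6 was called higher (0.32 ± 0.09 SE, adjusted p = 0.0369), where 5.28% of all units were called higher and 7.19% lower. tefu was at 0.27 ± 0.10 (adjusted p = 0.0871) and SMC6 at 0.11 ± 0.38 (adjusted p = 0.876). The call of Msh6 was lost in 8 of the 10 fits that leave out 1 array (ratio 0.26 to 0.38, highest adjusted p 0.312) and without the dye term (adjusted p = 0.066). On arrays scaled to the same spread tefu was called as well, at 0.42 (adjusted p = 0.0143).

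Transcripts of all 4 genes were measured against genomic DNA in untreated cells, on a dye-swapped pair that leaves no test. The log2 ratio of mRNA over genomic DNA was 1.68 and 1.77 for Parp1, 0.77 and 1.06 for tefu, 0.59 and 1.00 for Msh6 and -0.31 and -0.15 for SMC6. Parp1 was on the high side, with 85.1% of 8076 units below its mean of 1.73 ± 0.06 (SD, n = 2). tefu (0.91 ± 0.20, SD, 70.6% of units below) and Msh6 (0.79 ± 0.29, SD, 68.1% below) overlapped and lay in the upper middle. SMC6 was near the median (-0.23 ± 0.11, SD, 45.5% below). The ratios carry no length correction, so they rank each gene among the spots of these arrays and not by transcript number, and fewer expressing cells and less RNA per cell cannot be told apart. Over 8064 units, Lam ratios and mRNA ratios had r = -0.37, given as a description.

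The transcripts of the 3 genes with values were not called with the hormone ecdysone. The ratios on arrays 3426, 3427, 3450, 3451 and 3452 were 0.08, -0.12, -0.13, -0.05 and 0.10 for tefu. SMC6 gave -0.11, 0.15, 0.31, -0.50 and -0.28, and Msh6 gave -0.79, -0.96, 0.22, -0.21 and -0.06. Each gene had arrays on both sides of 0. By limma 0 of 3 genes were called and 0 had an unadjusted p under 0.05, where 2.17% of units were called higher and 1.61% lower; the fitted changes were -0.00 ± 0.12 for tefu (SE, adjusted p = 0.991), -0.10 ± 0.15 for SMC6 (adjusted p = 0.817) and -0.37 ± 0.19 for Msh6 (adjusted p = 0.411).

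**Figure D3:**
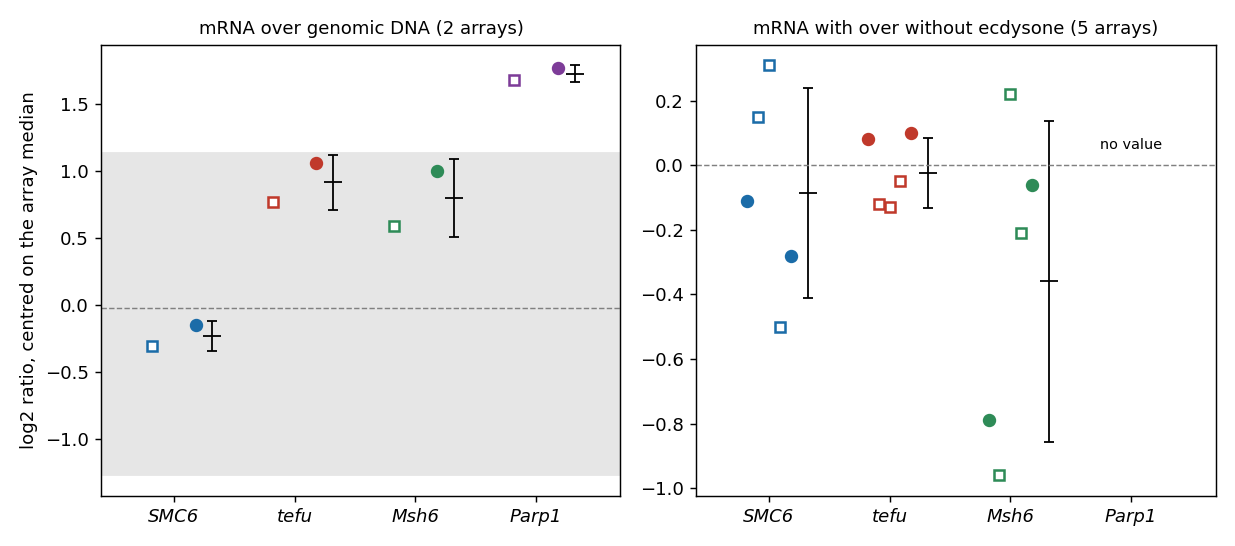
Left, log2 ratio of mRNA over genomic DNA for each gene on 2 arrays, with the 25th to 75th percentile of all units shaded (-1.27 to 1.13) and their median as the broken line. Right, log2 ratio of mRNA with over without ecdysone on 5 arrays; bars are mean ± SD, filled circles are arrays with the sample in Cy5 and open squares in Cy3. Parp1 lies above the shaded range on the left and has no value on the right.

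The low Lam ratio of tefu was not shared by the nearest measured genes in the order of the reference annotation (Release 6, used for gene order only). Hsc70-4, the next gene and a constitutive chaperone, was at -0.06 in Lam over Dam, with arrays from -0.30 to 0.12. mRpS10, a mitochondrial ribosomal protein gene on the other side, was at -0.38 (-0.87 to 0.24), and Art3 and CG42404 farther out were at -0.04 and 0.13. No array of these 4 genes went below the highest array of tefu, -0.94.

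At SMC6 the genes on either side were also low. CG5515 was at -0.63 (-1.08 to -0.21) and CG6204 at -0.60 (-0.78 to -0.44), each 1 gene away, and their arrays overlapped with those of SMC6. The next measured genes out, CG13606 and CG17786, were at 0.06 and -0.08. Msh6 lay between Pex3 at -0.60 (-1.18 to -0.29), which acts in peroxisome formation, and CG6878 at -0.20, with Prx1 at 0.77 (0.52 to 1.03) farther on, so genes of opposite sign lie close to it. Parp1 is the first measured gene in the annotation order of arm 3R, with neighbours on 1 side only: Alg-2 at -0.40 (-0.65 to -0.14) and CG41128 at -0.53 (-1.33 to -0.05).

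The TSA ratios of neighbours also went in both directions. With over without TSA, Lam delta CaaX was at -0.67 for Hsc70-4, -0.03 for mRpS10, 0.02 for Art3 and 0.35 for CG42404, beside 1.12 for tefu. It was at 0.66 for CG5515 and -0.13 for CG6204, beside 0.39 for SMC6. It was at 0.41 for Pex3, -1.78 for CG32147 and -0.26 for Prx1, beside 0.65 for Msh6. No measured neighbour of tefu or Msh6 in this comparison exceeded the repair gene itself. The repair genes, unlike their neighbours, were chosen in part for Lam ratios higher with TSA, which had r = 0.67 with this ratio across 7090 units. Such a ranking is therefore not independent of the choice.

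**Figure D4:**
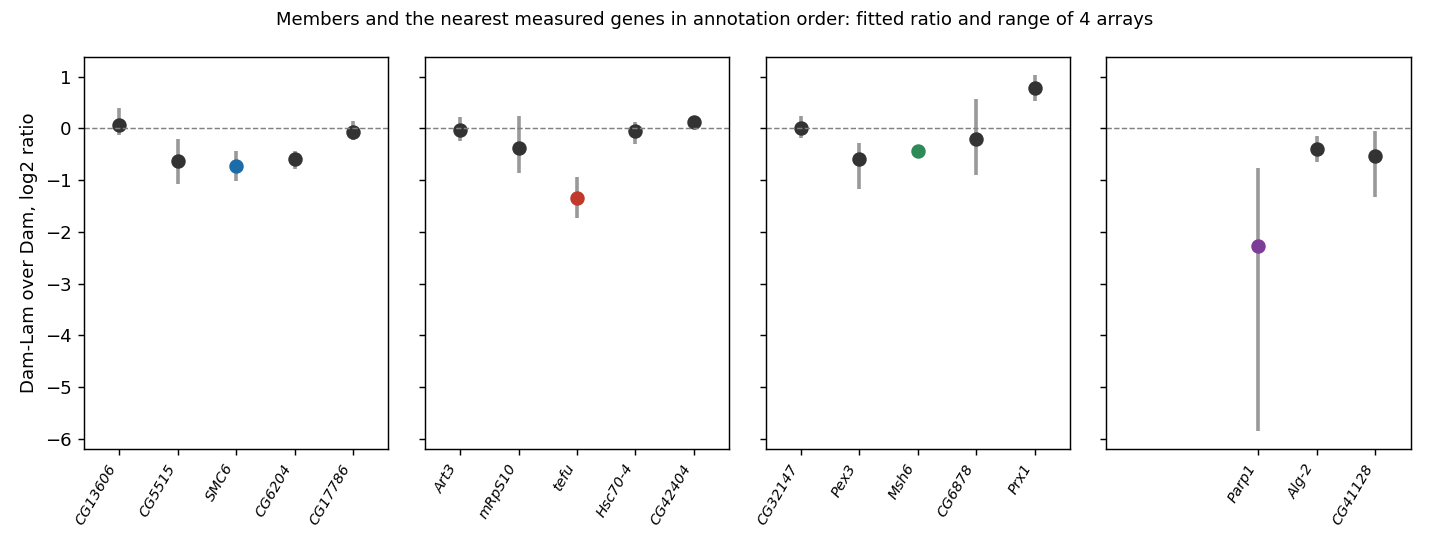
Fitted log2 ratio of Lam over Dam in untreated cells (vertical axis) for each repair gene (coloured point, middle) and the nearest measured genes in annotation order on the horizontal axis (dark points); grey lines span the 4 arrays. tefu lies below all 4 of its neighbours, SMC6 is level with the genes beside it, and Parp1 has neighbours on 1 side.

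The patterns of tefu and Msh6 were alike over the 20 arrays of untreated DamID, TSA and mRNA over genomic DNA. Among 5699 genes with a value on all 20, the gene most like tefu was Msh6 (r = 0.936), followed by CG11975 (0.933) and CG12608 (0.929). Those most like Msh6 were tefu, a gene for a chromatin assembly factor subunit (0.932) and CG11975 (0.928). There were 9 genes above r = 0.9 for tefu and 17 for Msh6. Without Dam array 3690, CG11975 was the nearest gene to tefu (0.942) and to Msh6 (0.937), while r between tefu and Msh6 stayed at 0.936. The arrays share samples and dyes and the 2 genes share a choice by Lam ratios with TSA, so these are descriptions.

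SMC6 was less like either gene, with r = 0.482 to tefu and 0.42 to Msh6, and its nearest genes were DEF8 (0.708), Tbcc (0.701) and Taf8 (0.676). Without Dam array 3690, an alternative added after the values were seen, the nearest genes were CG12301 (0.94), CG13126 (0.94) and CG9346 (0.939), and r was 0.816 to tefu and 0.708 to Msh6. That 1 array therefore decides which genes SMC6 resembles. Parp1 has 10 values, too few for the measure.

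Other genes of the repair lists showed how the 3 genes compare with their pathways. Of 39 other repair and SMC genes measured for Lam in untreated cells, 12 were called lower, 1 higher and 26 neither, where 14.9% of all units were called lower and 20.3% higher. These calls, like those of the 3 genes, come from the fit of all 4 arrays, with 2844 units called. Without array 2907 or 2921 only 247 and 11 units were called, and list genes were not counted in those fits. The median of the 39 was -0.34, beside -0.02 over all units, and 31 lay below 0. tefu was lower than any of them. In the break signalling list 3 of 8 were lower, among them Claspin (-1.04 ± 0.16, SE), a checkpoint mediator, mus101 (-0.65 ± 0.14), the TopBP1 homologue, and mu2 (-0.52 ± 0.15), which acts at telomeres and breaks. In the homologous recombination list 4 of 6 were lower, among them the helicase gene mus301 (-0.95 ± 0.16) and okr (-0.74 ± 0.20), the Rad54 homologue, while Brca2 was higher (0.49 ± 0.15).

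In the SMC list, 5 of 7 other genes were lower for Lam, among them the cohesin loader Nipped-B (-1.13 ± 0.16, SE), the cohesin subunits SMC3 (-0.77 ± 0.16) and SMC1 (-0.60 ± 0.15), and the condensin subunit glu (-0.77 ± 0.18). SMC5, the direct partner of SMC6, was not called (0.11 ± 0.13), nor was MAGE, another SMC5/6 component (-0.21 ± 0.17). None of the 5 base excision, 4 nucleotide excision, 3 end joining or 6 Fanconi and translesion genes was called by limma; at an unadjusted p under 0.05, 1 gene in each of the first-named 3 lists was lower and 0 of the Fanconi and translesion genes. No mismatch repair gene other than Msh6 was measured.

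For Lam delta CaaX in untreated cells, 6 of 40 other genes were called higher and 2 lower, with a median of 0.02, where 16.1% of all units were called higher and 16.4% lower. The difference of Lam minus Lam delta CaaX was called lower for 8 of 36 and higher for 0 by limma, with a median of -0.32 (12 lower and 0 higher at an unadjusted p under 0.05). Over all units 14.1% were called lower and 21.1% higher, with a median of -0.06. Those 8 included okr (-1.11), SMC1 (-1.16), Nipped-B (-0.82) and Claspin (-0.64), beside -1.18 for tefu and -0.64 for SMC6.

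With TSA, Lam delta CaaX rose at 17 of 37 other genes and fell at 4, with a median of 0.22, where 27.8% of all units were called higher and 29.2% lower. tefu (1.12 ± 0.10, SE) was at the top with mu2, which at 1.07 ± 0.10 lay within its error, followed by Fancm, a translocase of the Fanconi pathway, at 0.81 ± 0.10 and Claspin at 0.73 ± 0.11. All 4 measured genes of the Fanconi and translesion list rose, as did 4 of 8 break signalling and 3 of 6 recombination genes. Tdg, a base excision glycosylase gene, fell by 1.11 and Rad23 fell by 0.85. SMC5 also fell (-0.36 ± 0.10), beside 0.39 for its partner SMC6. The same 37 genes had a median of 0.47 for Lam with over without TSA and of 0.19 for Dam, given as a description because the choice of repair genes used these ratios. By limma 0 of the 37 were called for their transcript with ecdysone, and 0 had an unadjusted p under 0.05.

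**Figure D5:**
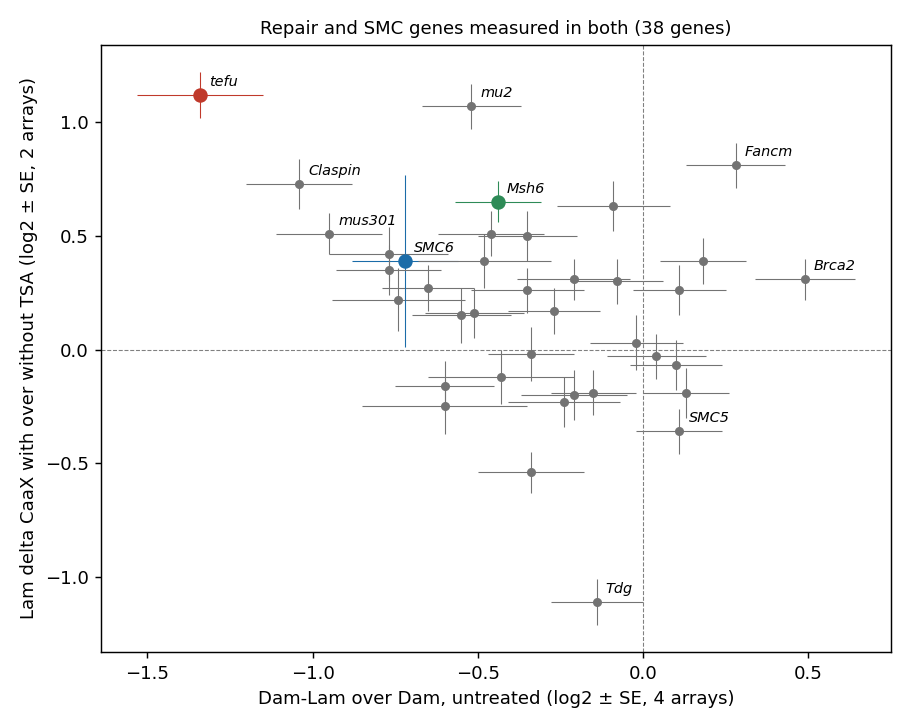
Lam over Dam in untreated cells (horizontal axis, log2 ± SE, 4 arrays) against Lam delta CaaX with over without TSA (vertical axis, log2 ± SE, 2 arrays of a 10-array fit) for 38 repair and SMC genes measured in both; coloured points are tefu, Msh6 and SMC6. tefu lies at the upper left corner at -1.34 and 1.12, and Tdg is the lowest point at -1.11.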

How the data were processed

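The authors deposited 1 log ratio per spot for each of 35 two-colour cDNA arrays, read here as log2 because the highest value, 11.6, is above 11.1, the natural log of a 16-bit ceiling. limma made them, per the submitters' processing notes; which version, how background and dyes were corrected, which spots were dropped, the base of the log and which channel is the numerator were not stated there. No intensities were used, so precision could be judged only from the spread between arrays.

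Rows were named from the platform's probe table: of 9006 rows, 7843 name 1 gene, 246 several and 917 are not in the table. Rows of a gene were averaged, giving 8423 units, and each array was centred on its median. Contrasts used limma 3.58.1 under R 4.3.3 (linear models with moderated variance, a dye term per gene, two-sided tests), keeping units measured on 75% or more of a fit's arrays. A single model of 6 DNA samples covered the 10 TSA arrays. The scripts were tested on simulated data. The genes and lists were chosen with earlier results of these data known. Genes named are the 4 repair genes, up to 4 called genes per list and fit by absolute log2 (other measured list genes may be named too; Brca2, SMC5 and MAGE were picked after their values were seen), the 3 genes with the highest r to each, and the 2 nearest measured genes on each side. Alternatives were no centring, no dye term, arrays scaled to the same spread, a value on every array, an adjusted p under 0.01, and each array left out. Ecdysone DamID arrays were not tested.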

Additional observations from a re-analysis of the deposited data

Results flagged for a closer look

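For Parp1 in Lam over Dam of untreated cells, the lowest array, 2945, was at -5.85 and stood apart from the other 3 arrays. Its gap to the nearest of them was 0.864 of the whole range. The array had been set apart for Parp1 in earlier results of these data, so this gap is a description and no test. Such gaps were examined in 11 combinations of gene and group, and chance alone flags about 1 in 20. Without array 2945 the fitted ratio was -1.18 ± 0.16 (SE).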

How the results depend on the processing

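At an adjusted p under 0.01 the units called were 1004 for Lam delta CaaX, 937 for Lam, 1383 for their difference, 243 for treated Lam delta CaaX over Dam and 113 for ecdysone, and the calls of SMC6 (-0.72) and Msh6 (-0.44) for Lam, SMC6 (-0.64) and tefu (-1.18) for the difference and Msh6 (0.32) with TSA were lost. Treated Lam delta CaaX over Dam had 884 calls, 440 without the dye term, which ended the call of Msh6 (0.32), and 1990 on scaled arrays, where tefu was called (0.42). Scaling also ended the call of tefu for the difference (-0.97), put Lam with over without TSA at 0.59 for SMC6, 0.96 for tefu and 0.52 for Msh6, Dam at 0.31 for Msh6, and tefu with ecdysone at 0.01. Without centring, Lam with TSA was 0.71 and Dam 0.24 for Msh6, and mRNA over genomic DNA, whose array medians were -0.218 and -0.204, was -0.44 for SMC6, 0.70 for tefu and 1.52 for Parp1.

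With 1 array left out, calls ran from 1024 to 3374 for Lam delta CaaX, 11 to 4237 for Lam, 2453 to 4367 for Lam delta CaaX with TSA, 90 to 1429 for it over Dam and 84 to 809 for ecdysone. Lam ran from -0.84 to -0.60 for SMC6, -1.51 to -1.16 for tefu and -0.47 to -0.41 for Msh6; Lam delta CaaX from -0.48 to 0.17 for tefu, -0.12 to 0.23 for Msh6 and -0.70 to 0.15 for Parp1; their difference from -0.76 to -0.51 for SMC6, -1.50 to -0.97 for tefu and -0.67 to -0.38 for Msh6. SMC6 ran from 0.13 to 0.66 for Lam delta CaaX with TSA, -0.32 to 0.55 for it over Dam, 0.59 to 1.13 for Lam with TSA, -0.58 to 0.41 for it over Dam, -2.77 to 0.15 for Dam and -0.18 to 0.02 for ecdysone. Msh6 ran from 0.26 to 0.38 for treated Lam delta CaaX over Dam and 0.73 to 0.77 for Lam with TSA, and tefu from -0.02 to 0.00 for ecdysone. The cause was not tested. Each repair gene has 1 row, so rows could not be tested singly. No paired analysis was possible because array numbers are unique and groups share none.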

Other observations

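Lam over Dam in the ecdysone experiment has no settled direction, since arrays of the same group correlate between -0.64 and 0.88. Without ecdysone tefu was at 0.08, 0.28 and 0.02 on arrays 3434, 3441 and 3443, Msh6 at 0.76, 1.02 and 1.06, and SMC6 at -0.89, 0.97 and 0.89. With ecdysone, on arrays 3428, 3436 and 3442, tefu was at 0.82, -1.14 and -0.82, Msh6 at -0.88, -0.58 and -0.24, and SMC6 at 0.83, -0.95 and -0.33. Lam with over without ecdysone was -0.13 and -0.06 for SMC6, 0.01 and -0.24 for tefu, and -0.13 and -0.22 for Msh6, on arrays that correlate at 0.02. Dam with over without ecdysone was -0.01 and -0.56 for SMC6, -0.24 and -0.08 for tefu, and -0.35 and 0.20 for Msh6, on arrays that correlate at 0.06.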
